A study of Rattus norvegicus with 8 samples.

Results

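Triglyceride turnover in rat liver was followed through 10 genes chosen by name for their roles: Gpam, Lpin1, Lpin2, Dgat1 and Dgat2 of synthesis, Pnpla2 and Pnpla3 of the patatin-like lipase family, the lipid droplet coat gene Plin2, the fatty acid transporter gene Cd36 and Mttp of lipoprotein assembly. Of the 18166 genes that had an array probe set named for them alone, 9 belong to this list, and all 9 were among the 8690 genes bright enough to be tested. Cd36 was the exception. Its only probe set is also annotated with RGD1562323, so it has no value of its own, and the shared probe set read between 1.15 and 2.61 on the 8 arrays, near the bottom of the scale. Levels below are log2 intensities, where a difference of 1 is a doubling of signal.

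Hepatocytes make triglyceride by adding fatty acids stepwise to glycerol 3-phosphate. Gpam, a mitochondrial acyltransferase, takes the first step, the lipins Lpin1 and Lpin2 turn phosphatidate into diacylglycerol, and the acyltransferases Dgat1 and Dgat2 add the last fatty acid. The product is stored in droplets coated with Plin2, is hydrolysed by Pnpla2 (adipose triglyceride lipase), or is loaded by Mttp onto apolipoprotein B for secretion as very low density lipoprotein (VLDL). Fat collects in hepatocytes both with chronic ethanol intake and, for a time, in the liver remnant after partial hepatectomy.

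The tissue was liver from Sprague-Dawley rats, male animals of an outbred strain, and each array carried 1 combination of diet, treatment and time. Diets were chronic ethanol or a pair-fed carbohydrate control. Treated rats received AM21, an oligonucleotide with locked nucleic acid bases that is antisense to the microRNA miR-21, by intraperitoneal injection in saline at 7.5 mg/kg, 72 h ahead of the operation and once more directly after it. The other rats had no treatment, so no group received a control oligonucleotide or saline here. All rats underwent partial hepatectomy (PHx), removal of 70% of the liver. Liver was sampled at the operation (0 h) and 24 h later. RNA of 3 rats (AM21) or 4 rats (untreated) was pooled for each array, and the same rats gave both times, so there were 4 pools with 2 arrays each. None of the arrays held liver of sham-operated rats, so PHx cannot be told apart from the surgery or from the time between samples. AM21 and untreated rats have separate ranges of identifiers in the labels, so treatment and cohort cannot be told apart either.

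The 8 arrays had median levels from 4.11 to 4.23. The hepatocyte marker list had mean levels from 11.34 to 11.50, and the level minimum for testing was a mean of 5 over the arrays. Of the 9 adipocyte markers 4 reached it, Fabp4, Cfd, Cidec and Lipe (up to 8.48, 6.96, 8.95 and 6.19). Adipoq, Plin1, Lep, Slc2a4 and Retn stayed at or below 4.37, 4.67, 4.03, 3.69 and 5.18. The array of the pair-fed untreated pool at 0 h stood apart for some genes. There, 22 of the 8690 tested genes (0.253%) lay more than 1 below each of the other 0 h arrays, and 3 of those genes were Pnpla3, Gpam and Plin2. On the other 7 arrays between 2 and 8 genes were alone in this way on the low side, and 0 of the 9 lipid genes. On the high side 11 genes were alone on that array and between 1 and 19 on the others, with 0 of the 9 lipid genes on any. Results that rest on that array are given with and without it.

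Promoter windows of the 250 bases before the gene start were taken from a RefSeq promoter table (assembly GRCr8), in which 7 of the 10 genes were matched. They are printed for the 3 genes that were low together on the array of the pair-fed untreated pool at 0 h, Gpam (chr1:264175912-264176161, minus strand), Pnpla3 (chr7:117173278-117173527, plus strand) and Plin2 (chr5:106229019-106229268, minus strand, the more upstream of 2 listed starts). Lpin1 (chr6:45108943-45109192, minus strand), which fell in all 4 pools after PHx, is shown with them. Each reads 5′ to 3′ toward the gene, and capitals mark the motifs found on either strand.
Gpam: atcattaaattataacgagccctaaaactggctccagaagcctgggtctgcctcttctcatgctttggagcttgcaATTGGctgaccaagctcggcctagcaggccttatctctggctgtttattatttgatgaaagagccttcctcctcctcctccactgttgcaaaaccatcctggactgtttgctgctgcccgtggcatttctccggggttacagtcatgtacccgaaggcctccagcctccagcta
Pnpla3: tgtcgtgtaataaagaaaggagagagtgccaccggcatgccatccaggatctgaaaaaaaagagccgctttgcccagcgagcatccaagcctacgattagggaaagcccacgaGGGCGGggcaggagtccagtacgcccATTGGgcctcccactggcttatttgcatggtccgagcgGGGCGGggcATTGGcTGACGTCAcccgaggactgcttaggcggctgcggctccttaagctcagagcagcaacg
Plin2: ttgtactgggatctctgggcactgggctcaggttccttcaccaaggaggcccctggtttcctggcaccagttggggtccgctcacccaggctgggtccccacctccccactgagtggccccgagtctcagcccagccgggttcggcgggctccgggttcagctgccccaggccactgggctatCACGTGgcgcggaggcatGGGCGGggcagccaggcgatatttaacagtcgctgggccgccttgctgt
Lpin1: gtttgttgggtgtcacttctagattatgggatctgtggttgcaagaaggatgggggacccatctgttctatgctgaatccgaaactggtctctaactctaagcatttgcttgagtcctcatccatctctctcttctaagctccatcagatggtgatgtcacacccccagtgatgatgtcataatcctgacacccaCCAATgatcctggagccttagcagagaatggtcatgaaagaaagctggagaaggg
The capitals in Gpam and Lpin1 are 1 CCAAT box each (CCAAT, or ATTGG on the other strand), a motif held by 34% of the 33469 windows of this length. Pnpla3 holds 2 CCAAT boxes, 2 GC boxes (GGGCGG, in 30.5% of windows) and 1 cyclic AMP response element (TGACGTCA, in 1.59%). Plin2 holds 1 E-box (CACGTG, in 5.59%) and 1 GC box. None of the motifs overlap, and no motif is common to the 3 genes. The sterol element letters TCACNCCAC (0.974% of windows) and the nuclear receptor hexamer AGGTCA (14.1%) were in 0 of the 8 windows of these genes. A match of letters is a description and does not show a binding site.

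Mature miR-21, the microRNA that AM21 is directed against, is printed from RefSeq (chr10:71902653-71902674, minus strand, GRCr8) with its seed, bases 2 to 8, in capitals.
rno-miR-21-5p: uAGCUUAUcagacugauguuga

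**Figure D1:**
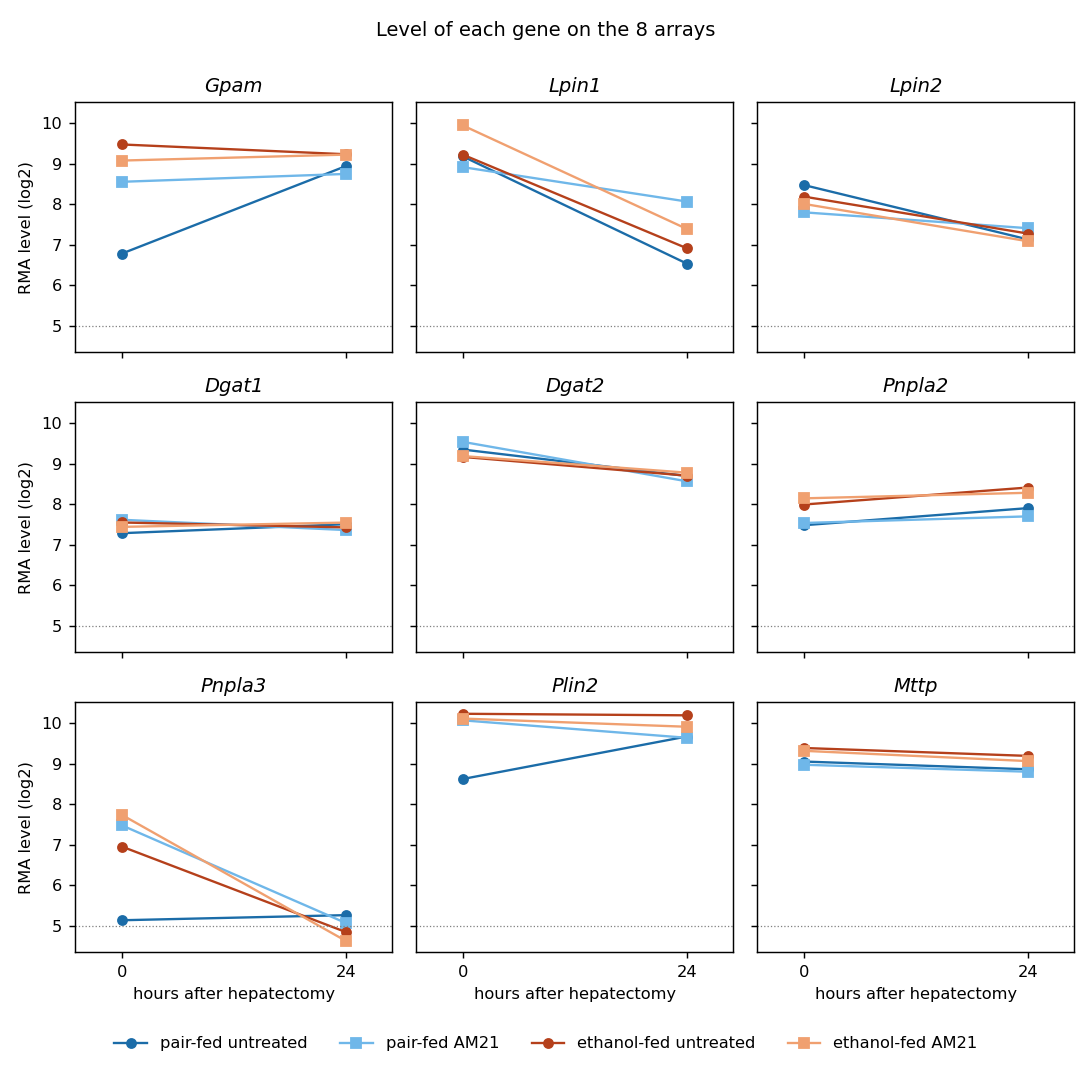
RMA level (log2) of each of the 9 measured genes against hours after hepatectomy, with a point for each array, a line joining the 2 arrays of each pool and a dotted line at the level minimum of 5. Lpin1, Lpin2 and Dgat2 have all 24 h points below all 0 h points. Gpam, Pnpla3 and Plin2 have a low 0 h point in the pair-fed untreated pool, at 6.78, 5.13 and 8.62.

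The first comparison asked how these genes differed between 24 h after PHx and the operation. Lpin1, Lpin2, Dgat2 and Pnpla3 fell, and 0 of the 9 genes rose. The other 5 did not pass the test, and among them Dgat1 differed by -0.01 ± 0.11 and Plin2 by 0.09 ± 0.23 (log2 change ± SE, 4 pools). The 4 falls among 9 genes stand beside 12.8% of the 8690 tested genes that fell, 15.3% that rose and 28.1% that changed in either direction, in a limma fit with the pool as a block and an adjusted p under 0.05. The count over all genes was 2443. It dropped to 1628 when the pair-fed AM21 pool was left out, and to 1466 (AM21) or 1566 (untreated) when a pool of ethanol-fed rats was. Pnpla3 reached the level minimum of 5 only through its 0 h arrays (mean 6.83 at 0 h and 4.95 at 24 h), so its call carries no weight in that count. The other 8 genes had a mean above the minimum at both times, and 3 of them fell. The median change of the 9 genes was -0.20, against 0.01 over all tested genes. In whole tissue, fewer cells of a type and less RNA per cell cannot be told apart.

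Among the genes of synthesis, the phosphatidate phosphatase gene Lpin1, which also acts in the nucleus as a coactivator of fatty acid oxidation genes, changed most. Its levels at 0 h were 9.18 (untreated) and 8.91 (AM21) in the pair-fed pools and 9.22 (untreated) and 9.94 (AM21) in the ethanol-fed pools. At 24 h they were 6.53, 8.06, 6.91 and 7.39 in this order of pools, which is kept below. All 24 h arrays were lower than all 0 h arrays, and the pair-fed AM21 pool kept the highest level at 24 h. The mean fell from 9.31 ± 0.44 to 7.22 ± 0.66 (SD, n = 4 arrays), a 4.25-fold fall (-2.09 ± 0.29, limma adjusted p = 0.00412). The pools changed by -2.64, -0.85, -2.31 and -2.55, so the pair-fed AM21 pool moved least. Lpin1 passed without any one of the pools, with changes from -2.50 to -1.90.

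Lpin2, a second lipin expressed in liver, also fell. It read 8.47, 7.80, 8.18 and 8.004 at 0 h and 7.13, 7.41, 7.27 and 7.08 at 24 h. The times did not overlap. The mean fell 1.86-fold, from 8.11 ± 0.29 to 7.22 ± 0.15 (SD, n = 4; -0.89 ± 0.15, limma adjusted p = 0.00786), and the pair-fed AM21 pool again changed least, by -0.39 against -1.34, -0.91 and -0.92 in the other pools. Over the 8 arrays the levels of Lpin1 and Lpin2 correlated with r = 0.87, a description only, since the arrays share the same pools and the same difference between times.

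Of the acyltransferases of the last step, Dgat2 passed the test and Dgat1 did not. Dgat2, the enzyme tied to newly made fatty acids, read 9.35, 9.54, 9.16 and 9.19 at 0 h and 8.69, 8.56, 8.70 and 8.78 at 24 h. Its times did not overlap, and the mean fell 1.54-fold, from 9.31 ± 0.17 to 8.68 ± 0.09 (SD, n = 4; -0.62 ± 0.12, limma adjusted p = 0.0104). Dgat1, which re-esterifies fatty acids at the endoplasmic reticulum, read 7.28, 7.61, 7.55 and 7.44 at 0 h and 7.50, 7.36, 7.43 and 7.54 at 24 h. Its times overlapped, and the pools went both ways, from -0.25 to 0.22 (limma adjusted p = 0.948). Whether the responses of Dgat1 and Dgat2 differ was not tested, since they are separate probe sets.

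Gpam was the member of the synthesis group with the widest spread between pools. Its levels were 6.78, 8.55, 9.47 and 9.07 at 0 h and 8.94, 8.74, 9.23 and 9.22 at 24 h. Only the pair-fed untreated array at 0 h was far from the rest. The change was 2.16 in that pool and 0.19, -0.24 and 0.15 in the others, 0.56 ± 0.37 over all 4 (limma adjusted p = 0.299). It was 0.03 without the pair-fed untreated pool.

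Of the patatin-like genes, Pnpla3, a droplet protein whose human variant is known from fatty liver disease, fell in 3 of 4 pools. Its levels at 0 h were 5.13, 7.48, 6.95 and 7.74, and at 24 h 5.26, 5.07, 4.84 and 4.63. The pair-fed untreated pool was already at its 24 h level at 0 h, and the other 3 pools started above 6.9. The fitted change was 3.67-fold (-1.88 ± 0.48, limma adjusted p = 0.0291), with pool changes of 0.13, -2.41, -2.11 and -3.11. It was -2.54 without the pair-fed untreated pool (adjusted p = 0.00896). The call was lost without the pair-fed AM21 pool (-1.70, adjusted p = 0.105), without the ethanol-fed untreated pool (-1.80, 0.0827) and without the ethanol-fed AM21 pool (-1.46, 0.0875). The mean at 24 h, 4.95 ± 0.27 (SD, n = 4), lay under the level minimum, so the size of the fall is uncertain.

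Pnpla2, which starts triglyceride hydrolysis, had small differences of the opposite sign. It read 7.48, 7.53, 7.99 and 8.14 at 0 h and 7.90, 7.70, 8.41 and 8.28 at 24 h. Each pool was higher at 24 h, but the ethanol-fed arrays at 0 h were above the pair-fed arrays at 24 h. The change of 0.29 ± 0.09 did not pass (limma adjusted p = 0.0654). It passed with the pool left out as a block (adjusted p = 0.0438).

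Plin2, the droplet coat protein that is stabilised by stored lipid, read 8.62, 10.07, 10.23 and 10.11 at 0 h and 9.67, 9.64, 10.19 and 9.91 at 24 h. The pair-fed untreated array at 0 h was lowest by 1.45, and its pool alone had a positive difference, 1.05 against -0.43, -0.04 and -0.20. Over the 4 pools the change was 0.09 ± 0.23 (limma adjusted p = 0.797), and it was -0.22 without that pool. Mttp, the transfer protein of VLDL assembly, read 9.05, 8.97, 9.39 and 9.32 at 0 h and 8.86, 8.80, 9.19 and 9.06 at 24 h. Every pool was lower at 24 h by a similar amount, -0.17 to -0.25, and the mean change of -0.20 ± 0.08 did not pass (limma adjusted p = 0.103).

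**Figure D2:**
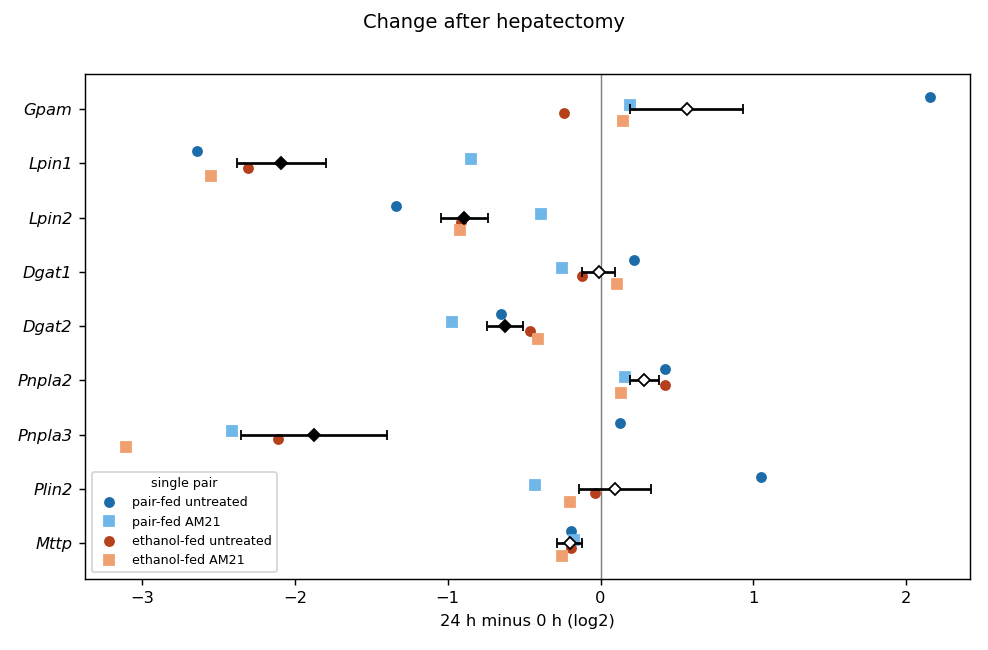
Change between 24 h and 0 h (log2) of the 9 genes, with a coloured point for each of the 4 pools and the fitted value with its SE as a diamond, filled where the adjusted p was under 0.05. Lpin1, Lpin2 and Dgat2 lie below 0 in all 4 pools, and Pnpla3 in 3, with the pair-fed untreated pool at 0.13.

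Other genes of the pathway were counted from 6 lists, to be read beside the 12.8% of all tested genes that fell and the 15.3% that rose. Of 14 tested lipolysis genes 5 fell and 0 rose, with a list median of -0.31. Ces1e, a carboxylesterase whose close paralogs may share signal, fell by 1.39 ± 0.14, Lipc, the hepatic lipase that acts on circulating lipoproteins, by 0.96 ± 0.10 and Aadac, a microsomal esterase, by 0.86 ± 0.12 (SE, 4 pools; limma adjusted p = 0.00187, 0.00194 and 0.00404). Levels of Lipc ran from 10.44 to 10.52 at 0 h and from 9.31 to 9.74 at 24 h. The fall thus appears in every pool without overlap.

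Of 15 tested regulators of lipid synthesis and oxidation 7 fell and 0 rose, with a median of -0.40. Of these 7, Ppard had a 24 h mean of 4.87, under the level minimum. Ppara, the fatty acid receptor that drives oxidation genes, fell by 1.49 ± 0.16, from levels between 8.18 and 9.02 to levels between 7.06 and 7.32 (limma adjusted p = 0.00194). Cebpa, a factor of the differentiated hepatocyte, fell by 1.03 ± 0.14 (0.00362). Srebf1, the sterol regulatory factor that controls fatty acid synthesis, fell by 0.65 ± 0.16 (0.0240), with pool changes of -0.17, -0.96, -1.01 and -0.48. The call of Srebf1 was lost without the pair-fed AM21, ethanol-fed untreated or ethanol-fed AM21 pool, with adjusted p of 0.0850, 0.0827 and 0.0558.

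Lipid droplet proteins counted 3 falls and 0 rises among 13 tested genes, with a median of -0.19. That is 23.1% changed, below the 28.1% of all tested genes. These were the hydroxysteroid dehydrogenases Hsd17b13 (-0.67 ± 0.10, limma adjusted p = 0.00497) and Hsd17b11 (-0.61 ± 0.09, 0.00523), and Cidec, which promotes droplet fusion (-0.55 ± 0.16, 0.0435). The call of Cidec was lost without each one of the 4 pools (adjusted p from 0.0580 to 0.0899).

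Among 11 genes of fatty acid uptake and activation 1 rose and 3 fell, with a median of -0.08. The fatty acid binding protein gene Fabp4 rose 3.18-fold (1.67 ± 0.29, limma adjusted p = 0.00786), from levels of 5.45, 5.38, 6.38 and 6.21 at 0 h to 8.05, 6.46, 8.48 and 7.11 at 24 h. Both untreated pools were above both AM21 pools at 24 h, and the difference of responses between AM21 and untreated rats, -1.36, did not pass. Of the 8 genes of the neutrophil list 2 were tested, S100a8 and S100a9. Both reached the level minimum only through the 24 h arrays, with means of 4.53 and 4.90 at 0 h. Their differences in that comparison were -1.52 and -1.33, and neither passed (limma adjusted p = 0.252 for S100a8). S100a8 read 8.09 and 8.54 in the untreated pools and 6.42 and 7.42 in the AM21 pools at 24 h. The 15 macrophage and Kupffer cell markers had a median of -0.28 in that comparison, against -0.05 over all tested genes, and 0 passed. In the same comparison the 3 tested red cell and platelet markers had a median of -0.79, and 0 passed. The sinusoidal endothelial and stellate lists had medians of 0.05 and 0.12. The part of neutrophils, macrophages or other cells in the Fabp4 values was not tested. Fabp4 is known from adipocytes, macrophages and endothelium. Of the 4 tested adipocyte markers, Fabp4 among them, 1 rose and 2 fell (Cfd and Cidec), and the mean of the 9-gene list ran from 5.25 to 5.30 at 0 h and from 5.23 to 5.64 at 24 h. Acsl1, the main acyl-CoA synthetase of liver, fell by 0.94 ± 0.09 (0.00172), and Slc27a2, a transporter and very long chain acyl-CoA synthetase, by 0.58 ± 0.11 (0.00964).

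Of 14 genes of VLDL assembly and secretion 4 fell and 0 rose, with a median of -0.13. That is 28.6% changed, close to the 28.1% of all tested genes. The named falls were small: the apolipoprotein gene Apoa4 (-0.58 ± 0.14), the sorting receptor gene Sort1 (-0.47 ± 0.12) and Sar1b of the secretory vesicle coat (-0.42 ± 0.12), with limma adjusted p of 0.0267, 0.0299 and 0.0383. The call of Sar1b was lost without each one of the pools (adjusted p from 0.0595 to 0.0997). The 24 h mean of Sort1, 4.90, lay under the level minimum. Apoa4 lost its call without either AM21 pool (up to 0.0653), and Sort1 without any pool but the pair-fed untreated one (up to 0.105). In glycerolipid synthesis 1 of 10 genes rose and 1 fell, 20% in all and below the share over all tested genes. Agpat5, an acyltransferase of the second step, rose by 0.94 ± 0.13 (0.00387) from 0 h levels of 4.93, 5.41, 5.74 and 5.56 to between 6.24 and 6.54, and glycerol kinase, Gk, fell by 0.37 ± 0.10 (0.0326). Gk lost its call without the pair-fed untreated, pair-fed AM21 or ethanol-fed untreated pool (adjusted p up to 0.110).

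Markers of other cells moved in the same comparison. Of 7 tested markers of dividing cells 3 (Ccnb1, Cdk1 and Aurkb) reached the level minimum only through the 24 h arrays, so their rise carries no weight. The other 4, Mki67, Top2a, Pcna and Mcm6, rose by between 2.11 and 3.91. The neutrophil genes S100a8 and S100a9 also reached the minimum only through the 24 h arrays, with means of 4.53 and 4.90 at 0 h and of 7.62 and 6.91 at 24 h. No other member of the neutrophil list reached it (mean list level 3.71 to 4.04 at 0 h, 4.15 to 4.79 at 24 h). Of 8 hepatocyte markers 1 fell and 0 rose, and the mean of that list stayed between 11.34 and 11.50. Among 15 macrophage and Kupffer cell markers 1 rose and 3 fell, with mean list levels from 7.42 to 7.92 at 0 h and from 7.29 to 7.95 at 24 h, and 26.7% of them changed against 28.1% of all tested genes. Among 8 stellate markers 3 rose and 3 fell, and among 7 sinusoidal endothelial markers 3 fell. The part of these cells in the falls of the lipid genes was not tested.

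**Figure D3:**
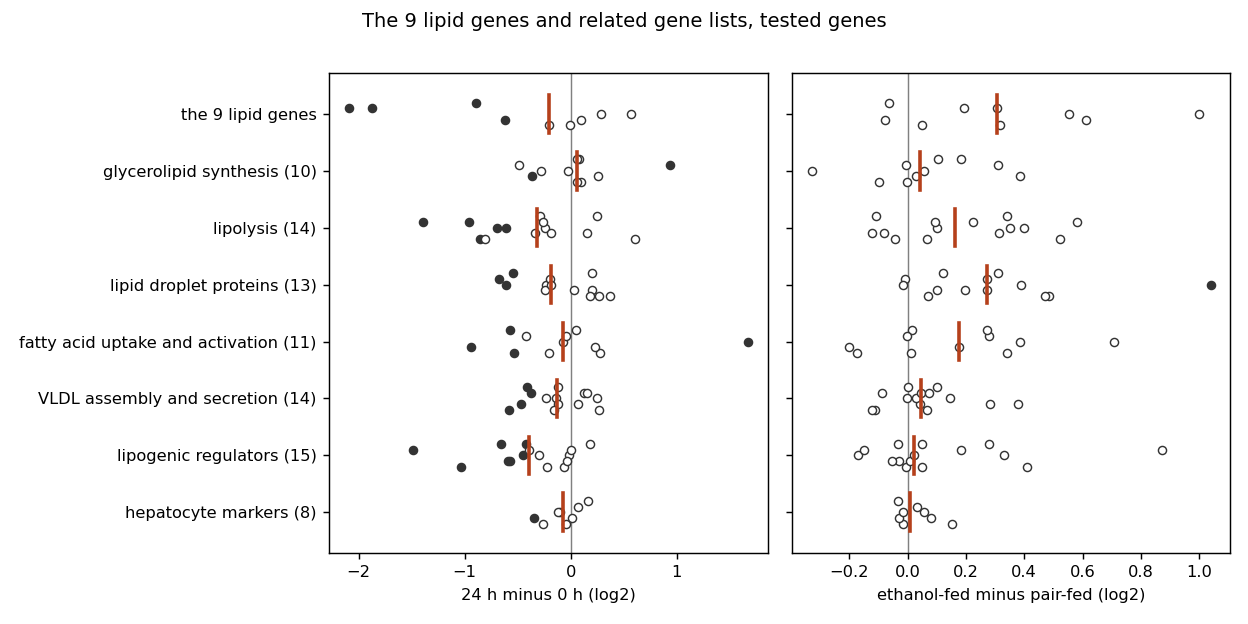
Log2 change between 24 h and 0 h (left) and log2 difference between diets (right) of the 9 lipid genes and of the tested genes of the 6 pathway lists and the hepatocyte markers, with a point for each gene, filled where the adjusted p was under 0.05, and a bar at the list median. On the left the regulators (median -0.40) and the lipolysis list (median -0.31) lie lowest and Fabp4 is the highest point at 1.67. On the right the filled point is Cidea at 1.04.

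The second comparison asked what differed between ethanol-fed and pair-fed liver over both treatments and times. None of the 9 lipid genes passed, where 0.46% of the 8690 tested genes did (40 genes in the limma fit, and 1335 at an unadjusted p under 0.05). Pnpla2, Mttp and Gpam were among those at an unadjusted p under 0.05. With any 1 of the 8 arrays left out, between 0 (without the pair-fed untreated array at 24 h) and 18 genes passed, and 0 of the 9. The median difference of the 9 genes was 0.31, against 0.01 over all tested genes. The 0 h and 24 h arrays of a pool share their rats, so the diets are represented by 2 pools each.

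Pnpla2 came nearest to the threshold. Its levels, given above, were 7.48 to 7.90 on the 4 pair-fed and 7.99 to 8.41 on the 4 ethanol-fed arrays. The diets did not overlap. The difference of means, 8.21 ± 0.18 against 7.65 ± 0.19 (SD, n = 4 arrays), was 1.47-fold (0.55 ± 0.09, limma adjusted p = 0.0564), and the matched pairs gave 0.51 and 0.51 in untreated rats at 0 h and 24 h and 0.61 and 0.58 in AM21 rats. It passed with a level minimum of 6 (adjusted p = 0.0478), with an intensity trend in the variance (0.0356) and when every 2-way interaction was fitted (0.0260). Leaving out single arrays gave adjusted p from 0.0857 to 0.179. Of 19 alternatives 16 did not call it, among them the fit on the mean of the 2 arrays of each pool. The highest adjusted p over the alternatives was 0.4835.

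Mttp was also higher on every ethanol-fed array than on the pair-fed array of the same treatment and time. The 4 differences were 0.33, 0.33, 0.34 and 0.26, and the means were 9.24 ± 0.14 in ethanol-fed and 8.92 ± 0.11 in pair-fed liver (SD, n = 4 arrays). All 4 ethanol-fed arrays lay above the pair-fed arrays, with the lowest at 9.06 against the highest at 9.05. The fitted difference was 0.32 ± 0.07 and did not pass (limma adjusted p = 0.112).

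The diet differences of Gpam and Plin2 came mostly from 1 array. Gpam differed by 2.69 between the untreated pools at 0 h and by 0.30, 0.52 and 0.48 in the other 3 pairs, with a fitted difference of 1.00 ± 0.39 (limma adjusted p = 0.282). Without the pair-fed untreated 0 h array it was 0.48 (adjusted p = 0.179). Plin2 differed by 1.61 in that pair and by 0.52, 0.04 and 0.27 in the others, with 0.61 ± 0.27 in the fit (adjusted p = 0.334) and 0.26 without that array. Pnpla3 gave 1.82 in that pair, 0.26 in AM21 rats at 0 h, and -0.42 and -0.44 at 24 h. Its fitted value, 0.31 ± 0.46 (adjusted p = 0.822), turned to -0.29 without that array.

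The lipins and the final acyltransferases showed no difference beyond their spread. The fitted values were 0.19 ± 0.27 for Lpin1, -0.06 ± 0.14 for Lpin2, 0.05 ± 0.10 for Dgat1 and -0.08 ± 0.11 for Dgat2 (limma adjusted p from 0.802 to 0.887). Each of these 4 had pairs of both signs. The largest single difference was that of Lpin1 in AM21 rats at 0 h, 1.03.

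Beside 0.46% of all tested genes, 1 of 77 tested entries across the 6 pathway lists passed for diet. This was Cidea, a droplet protein that promotes fusion and storage and is best known from brown fat. Its levels were 5.81, 5.46, 5.74 and 5.51 on the pair-fed arrays and 6.67, 7.12, 6.32 and 6.57 on the ethanol-fed arrays. The diets did not overlap, and the fitted difference was 2.05-fold (1.04 ± 0.16, limma adjusted p = 0.0467). The call was lost without each one of the 8 arrays (adjusted p from 0.0601 to 0.132). Lipid droplet proteins had a median difference of 0.27, lipolysis of 0.16, fatty acid uptake of 0.18 and the remaining lists of between 0.02 and 0.05. Of 15 macrophage and Kupffer cell markers 2 were higher (Marco by 0.77 and Cd5l by 0.71), beside 0.38% of all tested genes. The list had a median difference of 0.48, and its mean level was 7.79 to 7.95 in ethanol-fed and 7.29 to 7.56 in pair-fed liver. The mean of the hepatocyte list was 11.38 to 11.46 in ethanol-fed and 11.34 to 11.50 in pair-fed liver. Other marker lists also had positive medians, with 0 genes passing. They were 0.42 for red cells and platelets, 0.33 for adipocytes and 0.24 for sinusoidal endothelium. Dividing cells had 0.20, neutrophils 0.18 and stellate cells 0.11. Genes of the red cell, dividing cell and stellate lists went both ways. The part of macrophages or other cells in the differences of Pnpla2, Mttp and Cidea was not tested.

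**Figure D4:**
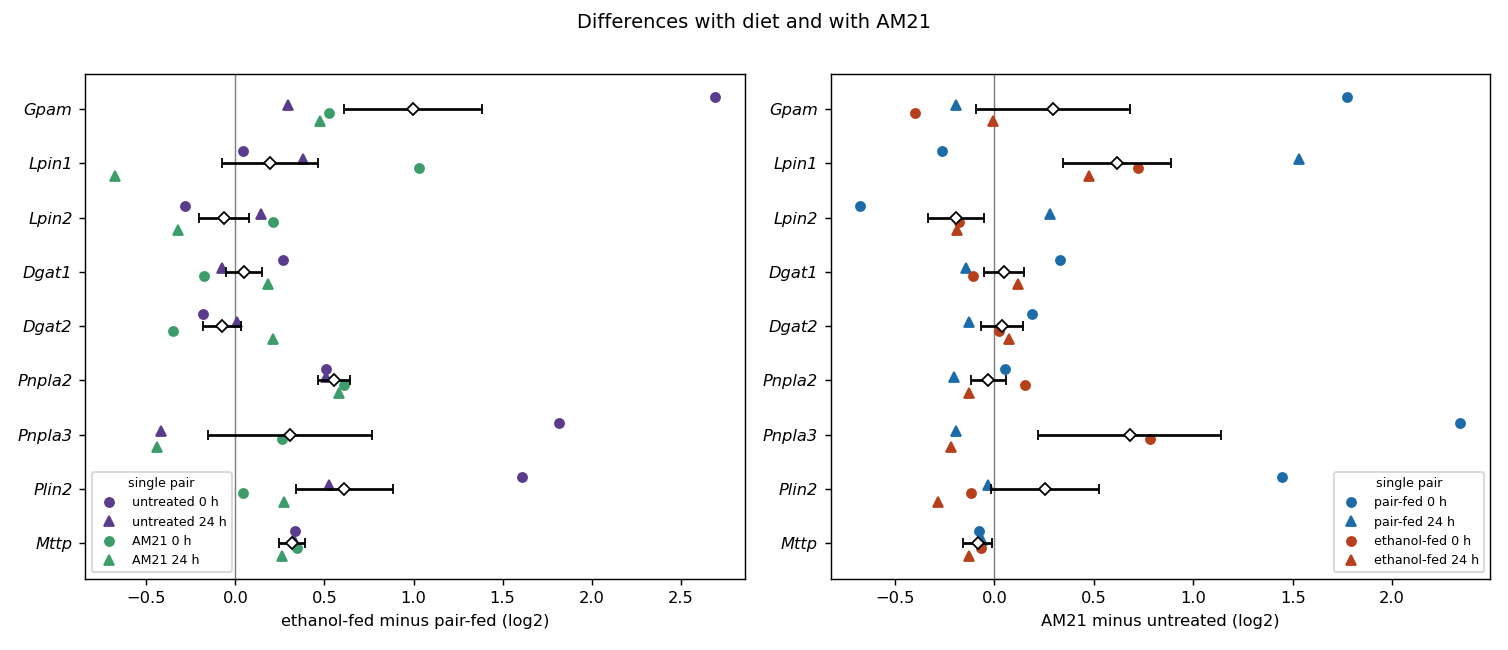
Differences between diets (ethanol-fed minus pair-fed) and between treatments (AM21 minus untreated) of the 9 genes in log2, with a coloured point for each of the 4 matched pairs of arrays and the fitted value with its SE as an open diamond. Pnpla2 and Mttp have 4 close points above 0 for diet, while Gpam has 1 point at 2.69 far from the rest.

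The third comparison asked whether AM21 changed these genes. None of the 9 passed, and 0% of the 8690 genes did in the limma fit (538 at an unadjusted p under 0.05, with 0 of the 9 genes among them). Lpin1 differed by 0.62 ± 0.27 (adjusted p = 0.800), with -0.26 and 1.53 in the pair-fed pairs at 0 h and 24 h and 0.72 and 0.48 in the ethanol-fed pairs. Pnpla3 differed by 0.68 ± 0.46 (adjusted p = 0.893), Gpam by 0.29 ± 0.39 and Plin2 by 0.25 ± 0.27. For these 3 the pair-fed pair at 0 h gave the largest difference, 2.34, 1.77 and 1.45, and it holds the array that stood apart. Without that array the values were 0.08, -0.23 and -0.10. Lpin2 differed by -0.19 ± 0.14, and the remaining 4 genes by between -0.08 and 0.05. In the pathway lists 0 genes passed.

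The response to PHx was then compared between diets. None of the 9 genes passed, beside 0.529% of all tested genes (46 in the limma fit, 943 at an unadjusted p under 0.05). Pnpla3 had the largest difference of responses, -1.47 ± 0.34 (adjusted p = 0.132), followed by Gpam with -1.22 ± 0.46 (0.365). Both comparisons include the array of the pair-fed untreated pool at 0 h. In fits with no block and without that array, added after the data had been seen, they were -0.69 and -0.14.

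Beside 0.529% of all tested genes, 1 of the 77 tested entries of the pathway lists passed. This was Acsl3, an acyl-CoA synthetase that is found on nascent droplets. It read 5.70 and 5.99 in the pair-fed pools and 7.36 and 7.13 in the ethanol-fed pools at 0 h, and 7.09 and 6.97 against 6.68 and 6.51 at 24 h. The pair-fed pools were higher at 24 h than at 0 h by 1.39 and 0.98, and the ethanol-fed pools were lower by 0.68 and 0.62, with a difference of responses of -1.84 ± 0.21 (limma adjusted p = 0.0116). The groups thus crossed between the times. In the same comparison 4 of the 7 tested markers of dividing cells were called lower, beside 0.46% of all tested genes. Of these, Ccnb1 (-2.44) and Cdk1 (-1.99) reached the level minimum only through the 24 h arrays, so their calls carry no weight. Top2a differed by -1.96 and Mki67 by -1.75, a smaller rise in ethanol-fed than in pair-fed pools. At 0 h Top2a read 5.14 and 4.58 in pair-fed pools against 6.56 and 5.52 in ethanol-fed pools. For Mki67 these were 4.95 and 4.58 against 6.21 and 5.60. The pair-fed pools were thus near or under the level minimum of 5 at 0 h for both genes, so these calls carry no weight either. Over all genes, 0 calls were left in this comparison with no level filter and 0 after quantile normalization. The part of dividing cells in the Acsl3 difference was not tested. The call of Acsl3 was lost in 4 of 7 alternatives. Among them were no level filter (limma adjusted p = 0.099), quantile normalization (0.0679) and no block (0.109). With no block and without the pair-fed untreated 0 h array the value was -1.58.

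The response to PHx was also compared between AM21 and untreated rats. None of the 9 genes passed and 0% of the 8690 tested genes did (604 at an unadjusted p under 0.05). Pnpla3 differed by -1.77 ± 0.34 (limma adjusted p = 0.226), Plin2 by -0.82 ± 0.31 (0.658) and Gpam by -0.79 ± 0.46 (0.793). In the fit without the array that stood apart these were -0.99, -0.04 and 0.30. Lpin1 and Lpin2, which fell least in the pair-fed AM21 pool, differed by 0.78 ± 0.41 (0.763) and 0.47 ± 0.26 (0.770).

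The genes most like each member were found by Pearson correlation of levels over the 8 arrays, a description in which the arrays share pools and the difference between times. Pnpla2 was most like the ubiquilin gene Ubqln1 (r = 0.984), the mitochondrial chaperone gene Hspa9 (0.982) and Tyrobp, a signalling adaptor of myeloid cells (0.979). Mttp was closest to Cd14, the endotoxin co-receptor of macrophages (0.987), Lims2 (0.985) and Iscu (0.973). Gpam was nearest to the co-chaperone gene Fkbp4 (0.985), Dctn3 (0.983) and Mospd2 (0.972), and Plin2 to Sdr9c7 (0.983), Brk1 (0.979) and Plod1 (0.976). Fkbp4 is itself among the 22 genes that were low on the array of the pair-fed untreated pool at 0 h. Pnpla3 was closest to RT1-Db1 (0.992), Cd81 (0.969) and Pcyt2 (0.960), a gene of phosphatidylethanolamine synthesis. Lpin1 was nearest to Pon2 (0.967), Pnp (0.959) and Use1 (0.959), Lpin2 to Grb7 (0.981), Cep85l (0.972) and Aadac (0.969), Dgat1 to Gemin4 (0.984), Gtf2h3 (0.944) and Cdk10 (0.934), and Dgat2 to Slc17a2 (0.996), Cdk18 (0.984) and Bcl6b (0.984). Among the 9 lipid genes themselves the highest correlation was that of Gpam with Plin2 (r = 0.92), both low on that same array.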

How the data were processed

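Liver RNA of 4 pools of rats at 2 times was measured on 8 Affymetrix arrays. The authors deposited log2 values, made with RMA in Affymetrix Expression Console according to the submitters' processing notes (version not given in the sources used here). RMA brings the arrays' distributions together, which hides a shift of most genes at once, and it gives no detection call. The number of pools limits the precision, and p-values measure the spread between pools (for diet and AM21, between arrays), not between rats.

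Of 36685 probe sets 18511 have 1 gene symbol in the platform annotation, 575 several and 17599 none. The brightest probe set stood for the 291 genes with more than 1. Of the named probe sets, 18394 were found in the RefSeq table (GRCr8). Genes with a mean level of at least 5 were tested.

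Tests used limma 3.58.1 in R 4.3.3 with Benjamini-Hochberg adjustment over 8690 genes and a threshold of 0.05. A run on simulated data had independent noise and no pool effect, so it cannot check how pools were treated. The PHx response had the pool as a block (3 residual degrees of freedom), as had its differences between diets and treatments (1 residual degree of freedom). The pairing of times rests on the animal identifiers. Diet and AM21 were fitted additively with time; the correlation within pools was estimated at -0.371 and set to 0, so 8 arrays count as independent although there were 4 pools. Named were the list's genes on every array, up to 3 called genes of each pathway list per comparison, up to 2 called markers of a cell type list, and the 3 tested genes most like each member. Beyond this rule, more markers of dividing cells and adipocytes were named, and S100a8 and S100a9 also where they had not passed. Ppard was named for its level. A further 22 genes low on 1 array were picked after their values were seen. Genes and lists were chosen with earlier results of these data known. Alternatives changed the level minimum, variance trend, normalization, probe set rule, block and arrays used.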

Additional observations from a re-analysis of the deposited data

Results flagged for a closer look

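In sets of 4 values for each gene, a lowest or highest value far from the other 3 was looked for in 81 sets, of which 5 had one; chance gives about 1 in 20. The arrays within a set differ by design in the remaining factors.

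Gpam had a diet difference of 2.69 between the untreated pools at 0 h, far from the other 3 pairs. Among the 4 pair-fed arrays Pnpla3 was far higher on the AM21 array at 0 h, at 7.48. Plin2 was far lower on the pair-fed untreated array than on the other 0 h arrays, at 8.62, and the same array makes its AM21 difference of 1.45 in the pair-fed pair at 0 h stand apart. The diet difference of Mttp was lowest in AM21 rats at 24 h, at 0.26, beside 3 that lay within a narrow range.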

How the results depend on the processing

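The falls of Lpin1, Lpin2 and Dgat2 with PHx kept their direction in all 14 alternatives, and with 1 pool left out they passed in each case; with the pools of 1 diet or treatment alone, some calls were lost. With 1 pool left out, 3 to 4 of the 9 genes and 1466 to 1705 of all genes were called. The counts were 2 and 1000 with pair-fed pools alone, 2 and 776 with untreated pools alone, 1 and 726 with AM21 pools alone and 4 and 1696 with ethanol-fed pools alone. For diet, 1 of the 9 genes was called with a level minimum of 6, with a variance trend and with all 2-way interactions. All genes called for diet were 11 without a level filter, 88 with a trend, 102 on pool means, 101 and 0 with 0 h and 24 h arrays alone, 8 and 0 with untreated and AM21 arrays alone, 285 with 2-way interactions and 0 to 18 with 1 array left out. AM21 gave 2 genes in ethanol-fed arrays alone and 8 with 2-way interactions. For PHx by diet, 0 genes were called without a level filter, 16 at a minimum of 6, 226 with a trend, 0 after quantile normalization, and 2 and 0 with no replicate block, on all arrays and without the pair-fed untreated 0 h array. With a trend PHx by AM21 gave 51 genes. Each difference of responses then had 1 of the 9, Pnpla3 (adjusted p = 0.0153 for diet and 0.0182 for AM21). The cause was not tested.

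Signs turned for values that had not passed. PHx changes were -0.047 for Gpam and -0.12 for Plin2 in ethanol-fed pools alone, 0.051 for Dgat1 in untreated pools and -0.32 for Plin2 in AM21 pools; with 1 pool left out, Plin2 ran from -0.22 to 0.27 and Dgat1 from -0.090 to 0.069. Diet differences with 24 h arrays alone were -0.15 for Lpin1, 0.11 for Dgat2 and -0.43 for Pnpla3, and with AM21 arrays alone -0.091 for Pnpla3. With 1 array left out diet ran from -0.11 to 0.51 for Lpin1, -0.19 to 0.060 for Lpin2, -0.021 to 0.12 for Dgat1, -0.17 to 0.0077 for Dgat2 and -0.29 to 0.71 for Pnpla3. AM21 differences were 0.10 for Pnpla2 with 0 h arrays alone. With 24 h arrays alone they were 0.044 for Lpin2, -0.10 for Gpam, -0.013 for Dgat1, -0.029 for Dgat2, -0.20 for Pnpla3 and -0.16 for Plin2, and with ethanol-fed arrays alone -0.20 for Gpam, 0.011 for Pnpla2 and -0.20 for Plin2. With 1 array left out AM21 ran from -0.23 to 0.62 for Gpam, -0.022 to 0.099 for Dgat1, -0.047 to 0.13 for Dgat2, -0.079 to 0.013 for Pnpla2 and -0.098 to 0.44 for Plin2. PHx by AM21 was 0.041 for Mttp after quantile normalization. With no replicate block and without the pair-fed untreated 0 h array, PHx by diet was 0.35 for Plin2, and PHx by AM21 was 0.30 for Gpam and 0.095 for Dgat1. At a minimum of 6 Pnpla3 was not tested, and low intensity limits it at 24 h.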

Other observations

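The 22 genes that were more than 1 lower on the pair-fed untreated array than on each of the other 0 h arrays, picked after their values were seen, include 6 described here. Chka, choline kinase of the phosphatidylcholine pathway, read 5.68 there. At 0 h it read 7.59 in the pair-fed AM21 pool, and 8.29 (untreated) and 8.42 (AM21) in ethanol-fed rats, and the next genes follow this order. The elongase Elovl6 read 4.60 against 6.11, 7.20 and 5.89. Fdps, of isoprenoid and sterol synthesis, read 8.91 against 10.02, 10.58 and 10.57, and the sterol reductase Tm7sf2 read 7.04 against 8.15, 9.69 and 9.39. The phospholipase gene Ddhd1 read 5.48 against 6.93, 8.63 and 8.21. Bmal1, a core clock gene, read 4.26 against 5.94, 7.53 and 7.19. At 24 h the pair-fed untreated array was more than 1 below each of the other 24 h arrays for none of these 6 genes, with Bmal1 at 6.63 and Fdps at 10.33. Chka was at 6.89 there, above the 6.33 of the pair-fed AM21 array. For Ddhd1 (5.755, with the next array at 6.49) and Tm7sf2 (7.64, with the next at 8.02) it was still the lowest 24 h array.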
